A study of Mus musculus with 6 samples.

Results

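The genes described here are 29 mouse genes of the p53 pathway: p53 itself (Trp53), its regulators Mdm2 and Mdm4, and target genes and downstream effectors, without the Bcl2 family. They were found by symbol among the 42396 genes listed in the count tables. All 29 passed the filter on low counts, which left 17439 genes. RNA was sequenced from primary cultures of ventral midbrain, taken from WT mouse embryos at embryonic day 14 and plated at 150000 cells per well. On the day of plating both groups received a lentivirus at a multiplicity of infection of 5, carrying pll3.7-Scr2 (the scramble control) or pll3.7-shRmstI, a hairpin against circRmst, the circular RNA of the gene Rmst. RNA of 2 to 3 wells per condition was taken at 3 days in vitro, and there are 3 libraries per group. Uninfected cultures were not analysed here, so a p53 response to the virus or to plating that both groups share cannot be seen. A single hairpin stands for the knockdown. The labels speak of 3 independent cultures but do not say which libraries share one, so the spread between libraries may be partly technical.

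Libraries held between 27248934 and 43646521 counts. Levels are given as CPM, in which counts are divided by the TMM-scaled library total. The labels call the cells dopamine neurons, and all 12 markers fixed for these neurons were detected and tested, with a summed level of 617 to 767 CPM over the 6 libraries. Markers of other cells were present too. Summed levels ran from 1806 to 2190 CPM over 10 markers of astrocytes and radial glia and from 310 to 504 CPM over 18 markers of dividing cells. They ran from 295 to 477 CPM over 10 markers of the oligodendrocyte lineage and from 141 to 212 CPM over 12 of mesenchymal and vascular cells. Over 10 markers of microglia and macrophages the sum was 24.4 to 31.2 CPM. These are bulk cultures of several cell types, so fewer cells of a type and less RNA per cell cannot be told apart.

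p53 is a transcription factor that is kept scarce by the ubiquitin ligase Mdm2 and restrained by its relative Mdm4. After DNA damage and other stresses the protein is stabilised, mainly without a change in its messenger RNA, and switches on genes of cell cycle arrest, apoptosis, DNA repair and metabolism, as well as Mdm2 itself, which closes a feedback loop. In developing neurons the pathway is known for its part in the death of damaged progenitors and newborn neurons. The members were listed with earlier results of the same knockdown and control libraries known, so their differences between the groups are a description and carry no test.

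All 29 members were expressed in these cultures, over a wide range. Per transcript length, as FPKM over the 6 libraries, Cdkn1a was the most abundant at 26.2 FPKM, above 90.6% of the genes tested. It encodes p21, the inhibitor of cyclin-dependent kinases that carries out p53-dependent arrest. Ei24, an endoplasmic reticulum protein gene induced by p53, followed at 24.5 FPKM. The kinase gene Plk2 was at 20.8 FPKM, and the cyclin G1 gene Ccng1 was at 18.3 FPKM. Trp53 itself was at 7.65 FPKM, with Mdm4 at 8.95 FPKM and Mdm2 at 6.95 FPKM. For comparison the median over the genes tested was 3.67 FPKM. The lowest 3 were the death receptor gene Tnfrsf10b at 0.497 FPKM, the secreted stress factor gene Gdf15 at 0.453 FPKM and Pidd1, which encodes the scaffold of the PIDDosome, at 0.442 FPKM.

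**Figure D1:**
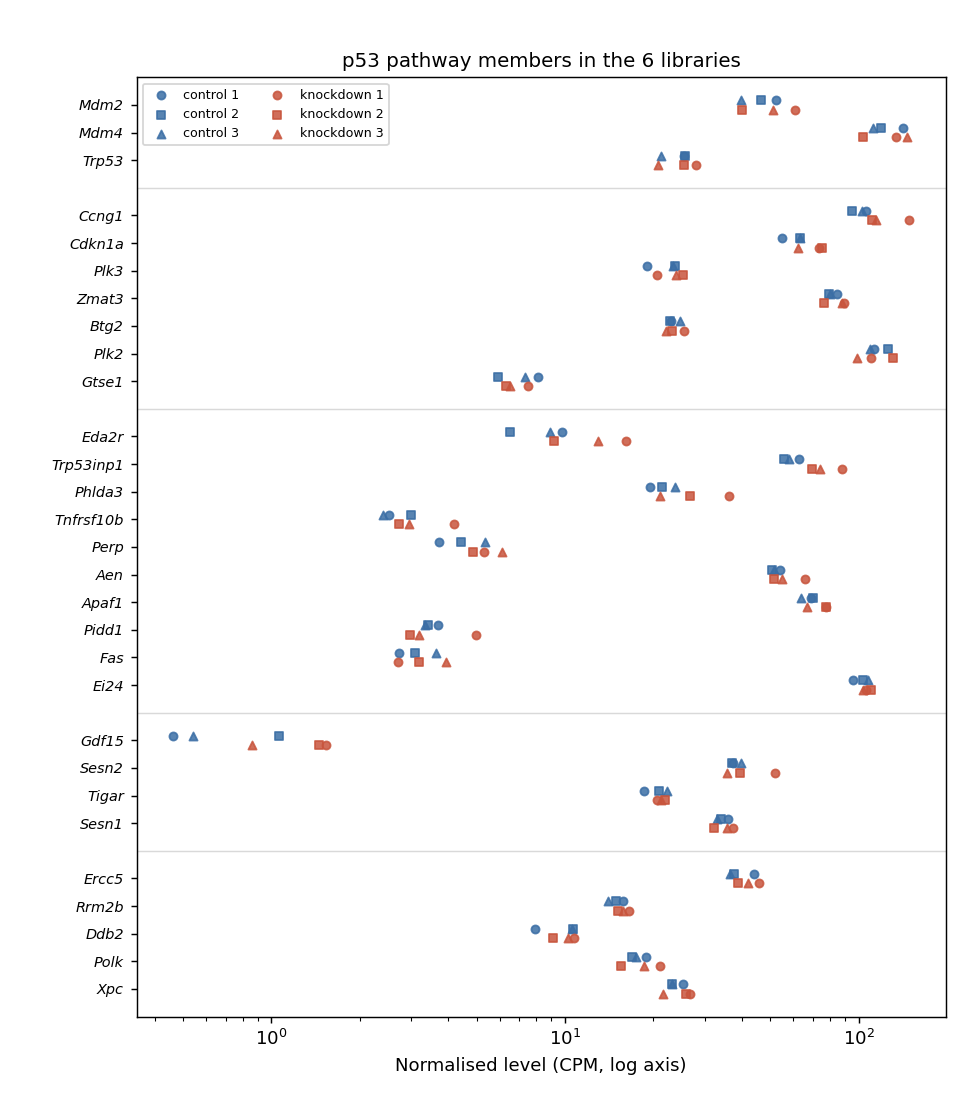
Normalised level (CPM, log axis) of the 29 genes in each library, with control libraries in blue and knockdown libraries in red, and genes grouped by role between grey lines. For most genes the points of the groups lie among each other, and Ccng1 and Trp53inp1 are the 2 genes whose groups do not overlap.

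The start regions of several members hold letters that match the consensus for p53 binding. This consensus is a decamer of 10 bases, and a full element is a pair of them. RefSeq promoter windows (GRCm38.p6, 250 bases before to 50 after a gene start) were at hand for 22 of the 29 members. A perfect match to the p53 consensus decamer, on either strand, lay in a window of 9 of these 22 genes, or 40.9%. The same search found it in 8.58% of the 13178 tested genes with a window. The list was made with known targets of p53 among its members, so a higher share in the members is not independent evidence. Counted by window, it lay in 10 of 29 windows of members. The share was 7.22% of the 16879 windows of tested genes and 8.36% of all 32851 windows. The 9 genes are Aen, Ccng1, Cdkn1a, Ei24, Gtse1, Mdm2, Polk, Sesn1 and Trp53. The central bases of 2 abutting decamers (CATG in each, 6 bases apart, a search that overlaps that of the decamer) were found in 1 member, Cdkn1a, against 0.387% of tested genes. The letters TATAAA of the TATA box, searched on both strands, were in windows of 2 members (9.09%, against 9.82% of tested genes). In Eda2r they lay on the strand of the gene and began 58 bases before a gene start. In Trp53 they lay on the opposite strand, 248 bases before a gene start, so this match is not called a TATA box here. The matches of p53, of Mdm2 and of 3 of the 4 most abundant members are shown, since these genes are the feedback loop and the targets with the highest levels. Each runs 5′ to 3′ on the strand of the gene, with the match in capitals.
Cdkn1a, chr17:29090901-29090974, plus strand: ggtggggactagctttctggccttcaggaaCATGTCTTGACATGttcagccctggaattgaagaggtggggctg
Ccng1, chr11:40755432-40755501, minus strand: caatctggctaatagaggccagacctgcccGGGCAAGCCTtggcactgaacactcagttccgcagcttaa
Mdm2, chr10:117710905-117710974, minus strand: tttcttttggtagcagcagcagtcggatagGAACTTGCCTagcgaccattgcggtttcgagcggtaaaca
Ei24, chr9:36797335-36797374, minus strand: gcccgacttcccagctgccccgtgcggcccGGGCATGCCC
Trp53, chr11:69580254-69580323, plus strand: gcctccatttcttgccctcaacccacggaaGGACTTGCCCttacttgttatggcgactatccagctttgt
In Cdkn1a the match shown begins 48 bases before the gene start at 29090979. It lies inside a longer run whose first decamer, GAACATGTCT, is a perfect match and begins 51 bases before that start. All matches found in Cdkn1a lay in the window of this start, and none in a window of another Cdkn1a start. A match is a description of the letters, not of binding, and many elements of p53 lie outside such windows.

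Against the control, 27 of the 29 members had a positive log2 fold change in the knockdown, at a median of 0.08. Of all genes tested 48.1% had a positive value, at a median of -0.00603. Most of the differences were small. The middle of the members, from the lower to the upper quartile, lay between 0.05 and 0.21 on the log2 scale, while the median standard error of a member was 0.13. The 95% interval stayed inside 1.5-fold up or down for 22 of 29 members, and for 65.0% of all genes. In edgeR's quasi-likelihood test over all genes, 0 of 17439 genes had an adjusted p under 0.05 (0% called), and 191 had an unadjusted p under 0.05 (1.10%). DESeq2 called 1 gene and limma voom 0, and no member was among the calls of either.

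**Figure D2:**
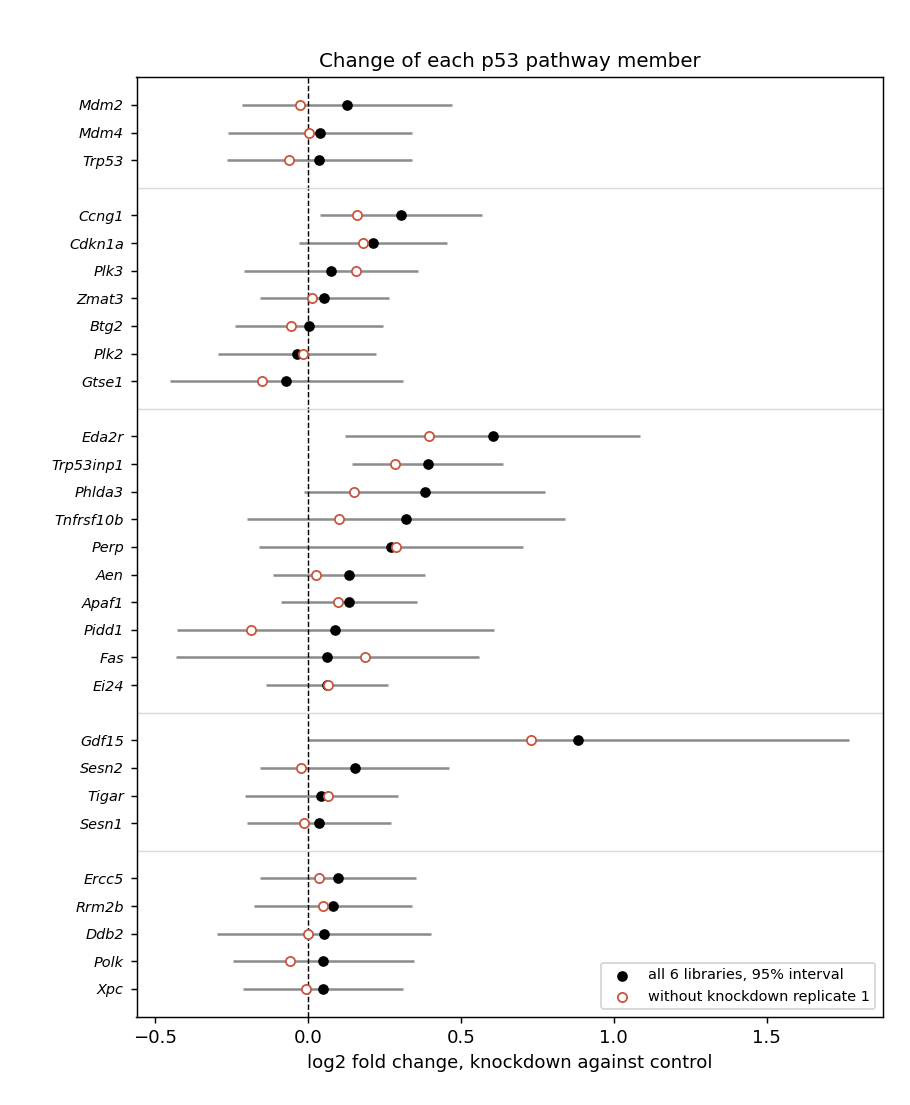
Log2 fold change of each member, knockdown against control, with 95% intervals from the fit over all genes (black, all 6 libraries) and the value without knockdown replicate 1 (open red circles). Black points lie to the right of 0 for 27 of 29 genes, and the open circles do so for 18 of 29.

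p53 and its direct regulators had log2 fold changes between 0.04 and 0.13, with intervals that reach well to both sides of 0. Trp53 (chromosome 11, 69580348 to 69591873, GRCm38) was at 25.4, 25.6 and 21.2 CPM in control replicates 1, 2 and 3, and at 28.0, 25.5 and 20.7 CPM in knockdown replicates 1, 2 and 3. The groups overlapped, and replicate 3 was the lowest library of each. Its log2 fold change was 0.04 ± 0.14 (SE), with a 95% interval from -0.27 to 0.34.

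Mdm2 (chromosome 10, 117688875 to 117710758), the ligase that p53 also induces, was at 52.5, 46.5 and 39.9 CPM in the control and at 60.7, 40.1 and 51.0 CPM in the knockdown. The knockdown libraries held the highest value and the next to lowest of the 6, so the groups overlapped. The log2 fold change was 0.13 ± 0.16. Mdm4, whose protein binds p53 and blocks its activity, was at 141, 119 and 112 CPM in the control and at 134, 103 and 146 CPM in the knockdown, with a log2 fold change of 0.04 ± 0.14. Here too the extremes of all 6 libraries, 103 and 146 CPM, were both knockdown libraries.

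Among the genes of arrest and growth control, Ccng1 stood apart from the rest, Cdkn1a came next, and the other 5 were close to the control. Ccng1 (chromosome 11, 40748552 to 40755309) encodes cyclin G1, which works with Mdm2 in the control of p53. Its level was 106, 94.7 and 103 CPM in the control and 149, 111 and 115 CPM in the knockdown. Every knockdown library lay above every control library, by a wide margin in replicate 1 and a narrow one in the other two. The group means were 101 ± 5.82 and 125 ± 20.6 CPM (SD, n = 3 each), a ratio of 1.23 and a log2 fold change of 0.30 ± 0.12 (SE).

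Cdkn1a (chromosome 17, 29090979 to 29100722) was at 55.1, 63.1 and 63.2 CPM in the control and at 73.2, 74.9 and 62.2 CPM in the knockdown. Knockdown replicates 1 and 2 lay above all control libraries, and knockdown replicate 3 lay within them. The log2 fold change was 0.21 ± 0.11, with an interval from -0.03 to 0.45. The tables also list a copy of Cdkn1a on an alternate sequence. In the counts it took at most 0.265% of both entries in any library, and with the copy added the value stayed at 0.21. In the FPKM tables the copy took 20.5% to 33.7% of the sum, with control and knockdown means of 9.03 and 7.43 FPKM, beside 24.5 and 27.9 FPKM for Cdkn1a. Both entries together came to 33.6 ± 5.54 FPKM for control libraries and 35.3 ± 5.18 FPKM for knockdown libraries (SD over 3), and the difference on the log2(FPKM + 0.1) scale fell from 0.18 for Cdkn1a alone to 0.08 for the sum, an alternative chosen after seeing the data. The direction stayed positive, but the size of the Cdkn1a difference is uncertain.

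The remaining genes of this group had log2 fold changes between -0.07 and 0.08. These were Plk3 and Plk2, kinases of the stress response, with 0.08 ± 0.13 and -0.03 ± 0.12, Zmat3, an RNA-binding protein gene, with 0.05 ± 0.10, and the antiproliferative gene Btg2 with 0.00378 ± 0.11. Gtse1, a gene of dividing cells whose protein restrains p53, had -0.07 ± 0.17, and Gtse1 and Plk2 were the only members below the control with all 6 libraries. Markers of dividing cells moved beside this group. Of 17 tested markers 16 were below the control, where 48.1% of all genes tested were above it. The 16 were measured in the same 6 libraries and are not separate observations. The median of the 17 was -0.27, and the sum of the list was 311 to 504 CPM in the control and 310 to 365 CPM in the knockdown. The median was -0.10 without control replicate 1 and -0.41 without control replicate 2. The other marker, Kif11, was listed at 0 in every count table but at 0.914 to 1.34 FPKM, so its 0 in the counts is not a level. Their part in the values of the arrest genes was not tested.

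The 10 apoptosis and death receptor genes had the highest median of the groups of members, at 0.20. All 10 had a positive value with 6 libraries, though Pidd1 turned negative without knockdown replicate 1, and Fas without control replicate 1 or without knockdown replicate 3. Trp53inp1 (chromosome 4, 11156441 to 11174379), which encodes a nuclear protein that assists p53 in apoptosis and also works in autophagy, was at 62.8, 55.8 and 57.9 CPM in the control. It was at 88.1, 69.4 and 74.1 CPM in the knockdown. The groups did not overlap, and the gap lay between control replicate 1 and knockdown replicate 2. Group means were 58.8 ± 3.60 and 77.2 ± 9.73 CPM (SD, n = 3 each), a ratio of 1.31 and a log2 fold change of 0.39 ± 0.11 (SE). Ccng1 and Trp53inp1 were the 2 of 29 members (6.90%) whose knockdown libraries all lay above the control, where 2.28% of all genes did. None lay wholly below, where 2.92% of all genes did.

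Eda2r (chromosome X, 97333837 to 97377234) encodes a receptor of the tumour necrosis factor receptor family that binds ectodysplasin A2. Its level was 9.81, 6.49 and 8.92 CPM in the control and 16.1, 9.17 and 12.9 CPM in the knockdown. Only knockdown replicate 2 fell within the range of the control. The log2 fold change was 0.60 ± 0.22, a ratio of 1.52. Phlda3 (chromosome 1, 135766085 to 135769134), whose protein competes with Akt for membrane lipids, was at 19.5, 21.4 and 23.7 CPM in the control and at 36.2, 26.8 and 21.1 CPM in the knockdown. Knockdown replicate 1 was far above the control and knockdown replicate 3 within it. The log2 fold change was 0.38 ± 0.18, and without knockdown replicate 1 it was 0.15.

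Tnfrsf10b, the mouse receptor for the death ligand TRAIL, was at 2.51, 2.98 and 2.41 CPM in the control and at 4.20, 2.73 and 2.94 CPM in the knockdown. Its difference came from knockdown replicate 1, and its log2 fold change of 0.32 ± 0.24 was 0.10 without that library. Perp, a membrane protein gene of desmosomes and apoptosis, was at 3.73, 4.42 and 5.36 CPM in the control and at 5.28, 4.87 and 6.09 CPM in the knockdown, with a log2 fold change of 0.27 ± 0.20. Its groups overlapped. The value was 0.29 without knockdown replicate 1, but leaving out 1 library moved it between 0.16 (without control replicate 1) and 0.42 (without control replicate 3). Pidd1 was at 3.71, 3.41 and 3.34 CPM in the control and at 4.98, 2.96 and 3.18 CPM in the knockdown. Its highest library and its lowest 2 were knockdown libraries, and its log2 fold change moved from 0.09 to -0.19 without knockdown replicate 1.

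The other 4 genes of the group were close to the control. Apaf1, the core of the apoptosome, had a log2 fold change of 0.13 ± 0.10. Aen, a nuclease gene of apoptosis, had 0.14 ± 0.11 in the counts but -0.03 on the log2(FPKM + 0.1) scale. The death receptor gene Fas had 0.06 ± 0.22, which was -0.08 without knockdown replicate 3, and Ei24 had 0.06 ± 0.09.

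**Figure D3:**
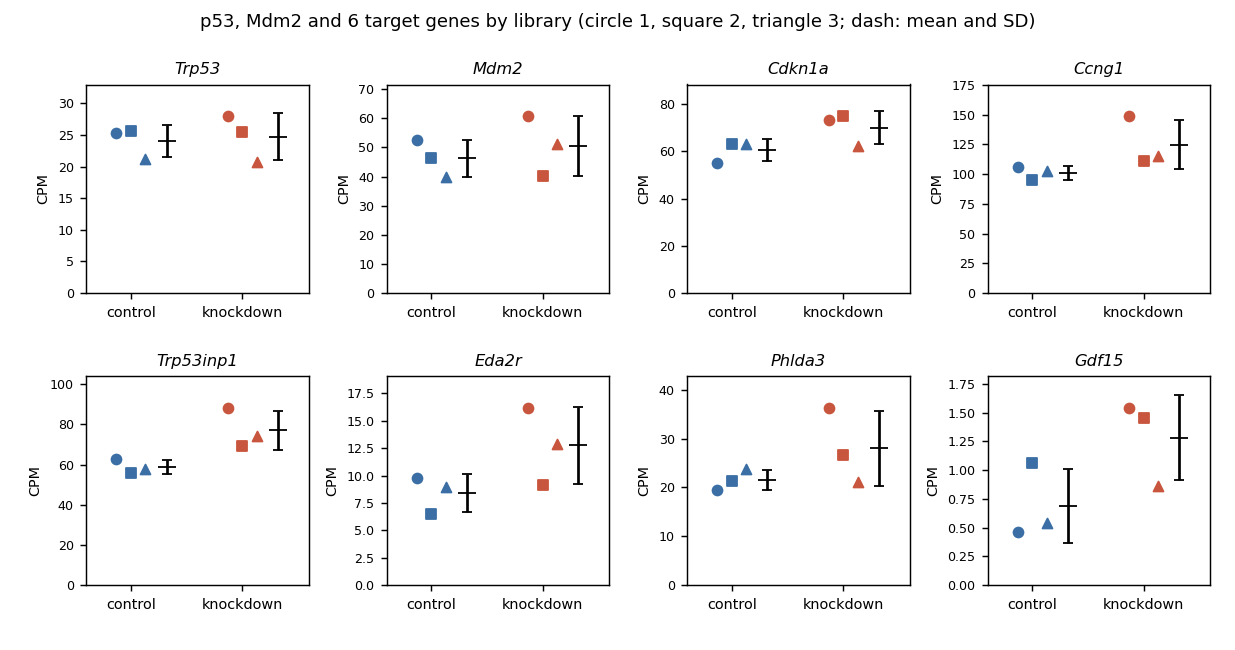
CPM per library of Trp53, Mdm2 and 6 target genes, with control in blue and knockdown in red. The 6 targets are the members with the smallest p between the groups in edgeR's fit over all genes. They were picked by this difference and do not stand for the other members. Circles, squares and triangles are replicates 1, 2 and 3, and the dash with its bar is the mean and SD of 3 libraries. For Trp53 and Mdm2 the groups overlap, with knockdown replicate 1 the highest point, while all knockdown points of Ccng1 and Trp53inp1 lie above the control points.

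Of the genes of metabolism and stress signalling, Gdf15 had the widest difference of all members, at a low level. Gdf15 encodes a secreted hormone of cellular stress. In the control it was at 0.463, 1.06 and 0.539 CPM, from 19, 42 and 15 counts. In the knockdown it was at 1.54, 1.45 and 0.860 CPM, from 67, 50 and 36 counts. Control replicate 2 lay above knockdown replicate 3, so the groups overlapped. The log2 fold change was 0.88 ± 0.40, and leaving out 1 library moved it between 0.65 and 1.37. Sesn2, a sestrin gene that restrains mTORC1 under stress, had 0.15 ± 0.14, with 51.8 CPM in knockdown replicate 1 against 37.0 to 39.9 CPM in the control, and -0.02 without that library. The related Sesn1 had 0.04 ± 0.11, and Tigar, a phosphatase gene that lowers glycolysis, had 0.04 ± 0.11.

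The 5 genes of DNA repair and nucleotide supply had the narrowest range of values. Their log2 fold changes were 0.10 ± 0.12 for Ercc5, a nuclease of nucleotide excision repair, and 0.08 ± 0.12 for Rrm2b, the p53-induced subunit of ribonucleotide reductase. They were 0.05 ± 0.12 for the damage sensor gene Xpc, 0.05 ± 0.13 for Polk, a polymerase that copies past damaged bases, and 0.05 ± 0.16 for Ddb2, which finds ultraviolet damage. The groups overlapped in all 5. Ddb2 shares 2554 bases with Acp2, a gene of 77.7 CPM against 9.88 CPM for Ddb2. Whether strand was used in counting is not known here, so reads of these genes may not be kept apart, and Ddb2 is uncertain. On the log2(FPKM + 0.1) scale the Ddb2 value was 0.26.

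The libraries of the knockdown did not contribute alike. Knockdown replicate 1 was the highest of the 6 libraries for 20 of 29 members (69.0%), where it was the highest for 16.2% of all genes tested. Knockdown replicate 2 was the highest for 4 members (15.4% of all genes) and knockdown replicate 3 for 3 (19.2% of all genes). Replicate 1 lay above the highest control library for 21 members, where it did so for 22.6% of all genes. The other knockdown libraries did so for 10 members each, where the shares over all genes were 22.6% for replicate 2 and 24.1% for replicate 3. The median ratio of a member to its control mean was 1.16 in knockdown replicate 1, 1.04 in replicate 2 and 1.05 in replicate 3.

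Without knockdown replicate 1, 18 of 29 members had a positive log2 fold change, where 49.6% of all genes did, and the median was 0.04 in place of 0.08. Trp53, Mdm2, Btg2, Pidd1, Sesn1, Sesn2, Ddb2, Xpc and Polk then had negative values. Eda2r kept 0.40, Perp 0.29, Trp53inp1 0.28, Cdkn1a 0.18, Ccng1 0.16 and Gdf15 0.73. By group the median became 0.13 for apoptosis and death receptors, 0.03 for metabolism, 0.01 for arrest and growth control, -0.00151 for DNA repair and -0.02 for p53 and its regulators. Leaving out any 1 of the 6 libraries in turn, 15 of 29 members had another sign at least once, and 14 kept a positive value each time (Aen, Apaf1, Ccng1, Cdkn1a, Eda2r, Ei24, Ercc5, Gdf15, Perp, Phlda3, Rrm2b, Tnfrsf10b, Trp53inp1 and Zmat3). The matching share over all genes was not computed, so these 14 cannot be called steadier than other genes. Knockdown replicate 1 was also the library with the lowest sum over 10 markers of neurons, at 5417 CPM against 5943 to 6674 CPM in the other 5. The part of this in the members' values was not tested.

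**Figure D4:**
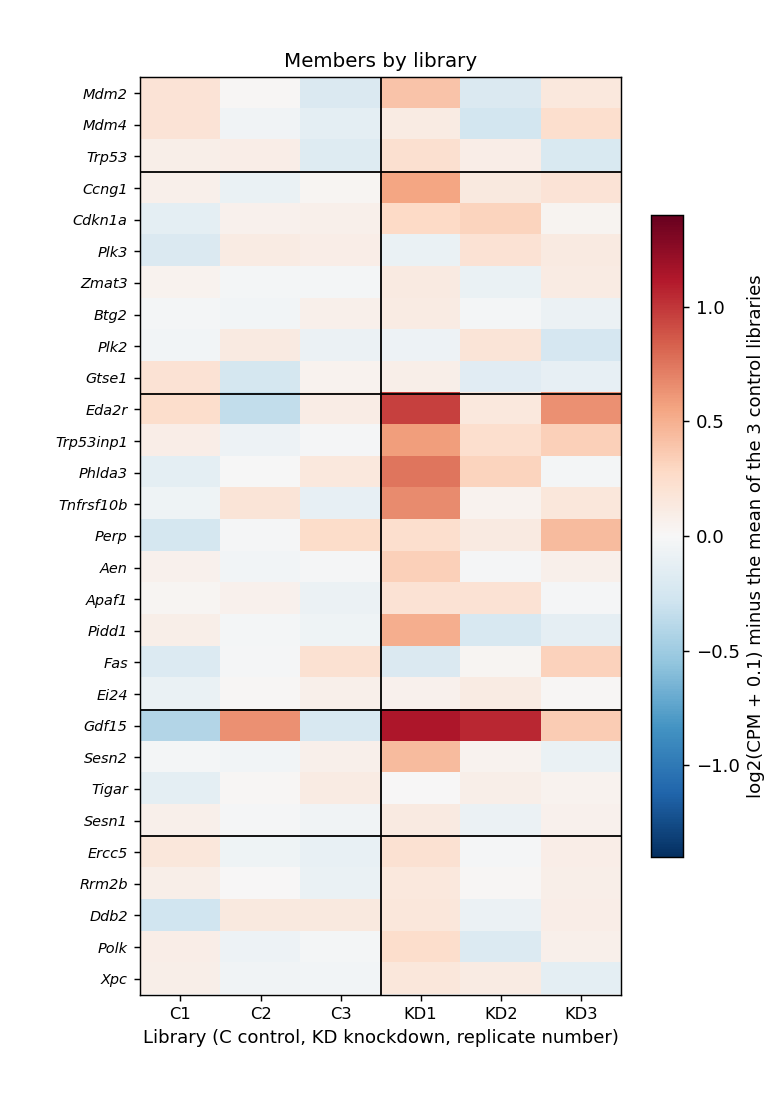
Log2(CPM + 0.1) of each member in each library minus the mean of the 3 control libraries, red above and blue below, with genes grouped by role between black lines. The column of knockdown replicate 1 is the darkest red, above all for Gdf15, Eda2r, Phlda3, Tnfrsf10b, Trp53inp1 and Ccng1. The columns of knockdown replicates 2 and 3 are mixed.

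Compared by replicate number, which is not known to mark a shared culture, 10 members were higher in the knockdown at each number (Aen, Apaf1, Ccng1, Eda2r, Ercc5, Gdf15, Perp, Plk3, Rrm2b and Trp53inp1). Over all genes this held for 8.87%. None of the members was lower at each number, where 10.4% of all genes were. For Trp53inp1, knockdown minus control was 0.49, 0.31 and 0.35 log2 units at numbers 1, 2 and 3. For Eda2r it was 0.71, 0.49 and 0.53, and for Phlda3 it was 0.89, 0.32 and -0.17.

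Members with and without a p53 decamer in the promoter window are set side by side. The median log2 fold change was 0.06 over the 9 members with a match, from -0.07 for Gtse1 to 0.30 for Ccng1. Over the 13 members with a window but no match it was 0.09, from -0.03 for Plk2 to 0.88 for Gdf15. These are descriptions, and no difference between them was tested.

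Other genes of the pathway, outside the members, did not pass the test in either direction in edgeR, with an adjusted p of 1.00 for each gene named here. Among 30 other p53 targets, 28 were tested, of which 0 passed in either direction and 1 had an unadjusted p under 0.05. Tap1, not among the 28, was listed at 0 in the counts but at 0.41 to 1.39 FPKM. Of the 28 there were 20 above the control, at a median of 0.04. In 2 of the 28 every knockdown library lay above every control library, and in 0 every one lay below. Over all genes tested 48.1% had a positive value, 1.10% an unadjusted p under 0.05, and 2.28% knockdown libraries that all lay above the control. The same shares stand beside the counts of the lists that follow. Ephx1, an epoxide hydrolase gene and 1 of the 2 without overlap, was at 13.5, 15.7 and 17.6 CPM in the control. It was at 22.0, 18.8 and 20.1 CPM in the knockdown, with a log2 fold change of 0.38 ± 0.13. The cytokine gene Lif had 0.95 ± 0.50 at 0.289 ± 0.0538 CPM in the control (SD, n = 3), and Sulf2, the most abundant of the list, had -0.06 ± 0.10.

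The Bcl2 family targets of p53 numbered 5, with 3 above the control, 0 past the test and 1 with an unadjusted p under 0.05. Their median was 0.10, and -0.08 without knockdown replicate 1. Pmaip1, the gene of Noxa, had a log2 fold change of 1.36 ± 0.41 and was at 3.08 CPM in knockdown replicate 1 against 1.36 and 1.15 CPM in the other knockdown libraries and 0.581 to 0.878 CPM in the control. Without knockdown replicate 1 its value was 0.78. Bax, the pore-forming effector of apoptosis, was at 57.9, 60.9 and 61.6 CPM in the control and at 81.4, 68.1 and 52.1 CPM in the knockdown, with 0.16 ± 0.14. Without knockdown replicate 1 its value was -0.00222.

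Of the kinases and sensors of DNA damage upstream of p53, 3 of 10 were above the control, at a median of -0.06. The median was 0.03 without control replicate 1, and 0.02 on log2(FPKM + 0.1), so its direction is not settled. Of these genes 0 passed the test, and 0 had an unadjusted p under 0.05. Nbn and Rad50, parts of the complex that senses double-strand breaks, had -0.11 ± 0.12 and -0.15 ± 0.17, and Trp53bp1, the most abundant at 502 ± 11.4 CPM in the control (SD, n = 3), had 0.00459 ± 0.09. With 1 library left out Nbn lay between -0.14 and -0.03.

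Of 16 genes of p53 stability, modification and cofactors 14 were tested, with 9 above the control. Their median was 0.04, and 0 had an unadjusted p under 0.05. Daxx was not tested. It was listed at 0 in the counts but at 4.13 to 8.59 FPKM, so its 0 is not a level. The median of the tested genes was -0.02 without control replicate 3 and -0.02 without knockdown replicate 1. Among the tested genes the acetyltransferase genes Crebbp and Kat5 had -0.20 ± 0.12 and -0.16 ± 0.11. With 1 library left out Crebbp lay between -0.30 and -0.06, and Kat5 between -0.23 and -0.09. The 12 caspases and their partners had 8 above the control and a median of 0.04, with Casp8 at 0.33 ± 0.35 and Fadd at -0.17 ± 0.18, and 0 at an unadjusted p under 0.05. With 1 library left out the median lay between 0.00315 and 0.06, Casp8 between 0.16 and 0.61, and Fadd between -0.30 and -0.02.

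Markers of other cells gave these values beside the members. Of the tested markers 0 of 9 for the oligodendrocyte lineage were above the control, at a median of -0.27, with a sum of 303 to 477 CPM in the control and 295 to 376 CPM in the knockdown. That median was -0.51 without control replicate 2 and -0.15 without control replicate 3. For microglia and macrophages 2 of 7 were above, at a median of -0.27, with a sum of 24.9 to 31.2 CPM in the control and 24.4 to 24.8 CPM in the knockdown, and this median turned positive without control replicate 1. Aif1 and Trem2 were listed at 0 in the counts, but Trem2 was at 1.07 to 2.29 FPKM and Aif1 at 0.0286 to 0.129 FPKM. For mesenchymal and vascular cells 7 of 9 tested markers were above the control, at a median of 0.04. That median was -0.06 without knockdown replicate 2 and 0.17 without control replicate 2. The sum of this list was 147 to 198 CPM in the control and 141 to 212 CPM in the knockdown. Medians were 0.00303 over 10 markers of neurons, -0.02 over 10 of astrocytes and radial glia and -0.03 over 12 of dopamine neurons, and each of these 3 had another sign without at least 1 of the libraries. The part of these cell types in the members' values was not tested.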

How the data were processed

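The authors deposited raw counts per gene, with 1 table per library and no pooling. They also deposited FPKM values, whose columns are those of Cufflinks per the file headers. Cufflinks 2.2.1, bcl2fastq 2.20, DESeq2 and the build GRCm38 (mm10) are named in the submitters' processing notes. The sources used here do not name the aligner, the counting tool or its strand setting. Low counts were filtered with filterByExpr, libraries were scaled by TMM, and the group alone was fitted in edgeR 4.0.16 (R 4.3.3) with its quasi-likelihood test, with p adjusted by Benjamini-Hochberg over all genes at a threshold of 0.05. Limma 3.58.1 and DESeq2 1.42.0 gave alternatives. The fit was tested on simulated data whose set changes were larger than that of any member. That test does not bear on differences as small as those of the members. Log2 differences by replicate number used CPM + 0.1.

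The members and the gene lists were chosen with earlier results of these data known. All members are named, with values in every library for Trp53, Mdm2, Mdm4, Cdkn1a, the 8 members with the smallest p, those without overlap, and the highest and lowest in FPKM. Of other pathway lists, the 2 genes with the smallest p and the most abundant are named, except for 1 gene that is not reported here. Marker lists are given by counts and sums only. Motifs were searched in RefSeq windows. Of 29 windows of members, 25 held bases of an own GENCODE transcript in sense direction. In total 9 members overlap another annotated gene, and 3 of them a gene of at least 1 CPM. Within each group, all pairs of libraries differed beyond counting error (chi-square per degree of freedom 12.8 to 91.4), so none was counted as a duplicate.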

Additional observations from a re-analysis of the deposited data

How the results depend on the processing

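The count of genes past the threshold was 0 in all alternatives but 2. It was 11 in edgeR with no low-count filter and 1 in DESeq2. The number of members above the control was 27 under every other scaling, filter and count-based tool and with the replicate number as a replicate block, and between 18 and 27 when 1 library was left out. In FPKM 23 of 26 members with a mean of at least 0.5 FPKM were above. The median of the members was 0.08 with the replicate block and lay between 0.04 (without knockdown replicate 1) and 0.15 (without knockdown replicate 2). The replicate block changed no call, with 0 genes past the threshold. Same-numbered libraries deviated together at numbers 1 and 2 (correlations over genes of 0.318 and 0.350), with a weaker 0.0503 at number 3. Between libraries of unlike number the correlations lay between -0.363 and 0.0997. These values do not settle whether the numbers pair the samples, and the main fit did not pair them. Of 517 member values under the alternatives, 25 had another sign than with all 6 libraries and 6 differed by more than 1 SD between libraries, for Aen and Ddb2 in FPKM and for Cdkn1a summed with its copy in FPKM. The median of the microglia list was -0.20 with a filter of 1 CPM in 3 libraries and -0.20 with limma voom. It was -0.18 with the replicate block, -0.10 on log2(FPKM + 0.1), -0.082 on log2(FPKM + 1) and -0.18 on log2(FPKM + 0.1) without a filter. With 1 library left out it lay between -0.32 and 0.043, the latter without control replicate 1. The cause was not tested. With 1 library left out the log2 fold change lay between -0.013 and 0.027 for Trp53bp1, -0.24 and 0.069 for Rad50, -0.12 and 0.00783 for Sulf2, and -0.00222 and 0.32 for Bax. Genes of few counts, such as Gdf15, are limited by depth.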
